A study of Mus musculus with 6 samples.

Results

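The genes described here are 51 genes that cells switch on to copy their DNA and to divide. They were taken as a list of names, 16 that act in DNA replication and 35 that act in mitosis, and found on the arrays through the accession of each probe. They were measured in skin labelled telogen, when hair follicles rest, from 3 untreated male mice with Sox4 conditionally knocked out in skin (KO) and 3 untreated wild-type male mice (WT), each on a 1-colour Agilent array. KO mice were 17, 18 and 16 weeks old and WT mice 20, 19 and 18 weeks old (replicates 1, 2 and 3), all of a mixed C57Bl6/129Sv background. The promoter that drove the deletion, and the skin cells it reached, were not stated in the labels. Sox4 encodes a DNA-binding protein of the SOX family.

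Each value below is a log2 signal relative to the 75th percentile of its array, so 0 is the brightness of the probe at that percentile; fold changes are log2 differences, KO minus WT. All 51 genes had a probe. After a filter on dim probes, which kept a probe well above background on every array of at least 1 group, 47 genes were left among 22823 genes and unnamed transcripts tested, 15 of replication and 32 of mitosis. Ccne2, Ncapg, Cenpf and Aurkb were not well above background on any of the 6 arrays and have no fold change. Cdc6 and Chek1 passed through WT (well above background on 2 of 3 KO arrays) and Kif2c through KO (2 of 3 WT arrays).

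Genes of the cell cycle are transcribed in waves. E2F factors open the first wave, which supplies the replication machinery: the MCM helicase that unwinds DNA, the PCNA clamp that holds the polymerase, and the enzymes that make nucleotides. A later wave, driven by the B-MYB and FOXM1 factors through a promoter element called CHR, supplies the mitotic kinases, the spindle and the proteins that part the chromosomes. In resting cells the DREAM complex holds both waves down, at E2F sites and at CHR elements. In telogen skin most follicle cells are at rest, while basal cells of the epidermis go on dividing.

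The RefSeq promoters of the genes show this division in sequence. Windows from 250 bases before to 50 bases after the transcription start (build GRCm38.p6) were found for 43 of the 51 genes and searched on both strands. A gene with several starts, such as Prc1 or Mcm7, was counted if any of its windows held the letters. Not all Mcm7 windows held E2F letters. The CHR letters TTTGAA were found for 23 of 30 mitosis genes (76.7%), 2 of 13 replication genes (15.4%) and 20.2% of all 27025 genes. The E2F letters were TTTGGCGC, TTTCGCGC, TTTCCCGC or TTTGCCGC. They were found for 2 of 30 mitosis genes (6.67%), 5 of 13 replication genes (38.5%) and 2.60% of all. CCAAT, the box bound by NF-Y, was found for 25 of 30 mitosis genes (83.3%), 8 of 13 replication genes (61.5%) and 41.1% of all. E2F letters on opposite strands can overlap each other, as they do in the Mcm5 and Mcm6 windows. A match describes letters and not a bound site. Ccna2, Foxm1, Tpx2, Aurkb, Kif20a, Mcm4, Gins2 and Ccne2 had no entry.

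The 160 bases before the start are shown for 4 mitosis genes, chosen because a CHR match lies before the start, and for 3 replication genes with an E2F match. Capitals mark the CHR letters in the mitosis genes and the E2F letters in Cdk1 and in the replication genes, on either strand, from RefSeq sequence of GRCm38.p6.
Cdk1 (chr10:69352913-69353072, minus strand): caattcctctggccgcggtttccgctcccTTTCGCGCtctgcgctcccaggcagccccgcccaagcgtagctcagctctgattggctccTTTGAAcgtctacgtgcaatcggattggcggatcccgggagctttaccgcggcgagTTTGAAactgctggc
Top2a (chr11:99024190-99024349, minus strand): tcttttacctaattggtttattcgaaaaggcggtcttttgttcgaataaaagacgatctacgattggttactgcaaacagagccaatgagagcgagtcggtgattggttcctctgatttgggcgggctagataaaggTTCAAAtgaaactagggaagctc
Cdc20 (chr4:118437344-118437503, minus strand): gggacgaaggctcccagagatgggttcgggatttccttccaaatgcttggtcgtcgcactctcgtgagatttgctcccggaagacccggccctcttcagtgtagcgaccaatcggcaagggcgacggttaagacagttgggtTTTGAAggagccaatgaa
Kif11 (chr19:37376222-37376381, plus strand): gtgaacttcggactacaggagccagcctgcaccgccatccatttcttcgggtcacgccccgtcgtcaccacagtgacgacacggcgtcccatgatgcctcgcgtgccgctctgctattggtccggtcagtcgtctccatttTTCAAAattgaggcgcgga
Mcm6 (chr1:128359706-128359865, minus strand): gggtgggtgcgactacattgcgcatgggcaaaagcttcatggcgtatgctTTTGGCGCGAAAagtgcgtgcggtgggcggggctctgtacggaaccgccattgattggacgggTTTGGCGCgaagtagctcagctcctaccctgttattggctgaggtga
Mcm5 (chr8:75109349-75109508, plus strand): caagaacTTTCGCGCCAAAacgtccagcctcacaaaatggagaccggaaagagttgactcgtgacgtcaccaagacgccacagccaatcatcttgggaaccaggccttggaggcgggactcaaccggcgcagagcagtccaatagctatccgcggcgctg
Cdc6 (chr11:98907991-98908150, plus strand): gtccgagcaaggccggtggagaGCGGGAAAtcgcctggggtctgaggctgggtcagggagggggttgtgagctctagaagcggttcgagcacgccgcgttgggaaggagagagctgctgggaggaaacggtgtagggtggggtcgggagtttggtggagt
Cdk1, the kinase that starts mitosis, holds both kinds of letters. In the bases shown, Top2a and Kif11 hold the CHR letters on the opposite strand, where they read as TTCAAA, and Cdc20 on the strand shown. Further from the start, outside these bases, the Top2a window also holds them on the strand shown.

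**Figure D1:**
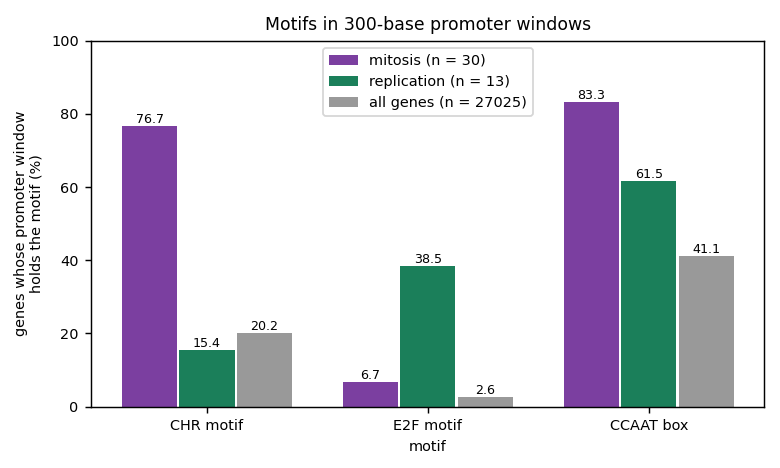
Share of genes, in percent, with each motif in a 300-base promoter window at any listed start, for mitosis genes (30), replication genes (13) and all genes (27025). CHR letters were found for 76.7% of mitosis genes and E2F letters for 38.5% of replication genes, against 20.2% and 2.60% of all genes.

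Sox4 itself was read first, as a check of the labels. It read −2.94, −2.88 and −3.05 in KO skins 1 to 3, against 0.41, 0.65 and 0.75 in WT skins. All 3 KO arrays lay below all 3 WT arrays, by −3.56 (SE 0.13, limma adjusted p = 0.00135). Between 52.1% and 66.4% of probes were well above background, most in KO replicate 1, and no spot was saturated. KO replicate 3 and WT replicate 1 shared slide 1, and KO replicate 1 and WT replicates 2 and 3 shared slide 2. KO replicate 2 was alone on slide 3, so it adds nothing to KO against WT in fits with slide as a block. Hair shaft and inner root sheath markers, made in growing follicles, went against the telogen label in KO replicates 1 and 2, with scores of 4.09 and 3.96 in these arrays, against −0.19 to 0.25 in the other 4 arrays (a score is the median over genes of the log2 signal minus the WT mean). The list medians are therefore given with and without these skins. All 10 basal keratinocyte markers listed passed the filter, with 9 of 10 fold changes negative and a median of −0.20. Precision was limited by having 3 arrays a group.

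None of the 47 cell cycle genes differed between KO and WT beyond the spread between arrays. By limma with Benjamini-Hochberg adjustment over all genes, 0 of 47 passed 0.05, where 0.0219% of all genes and transcripts did (5 of 22823). Of all, 0.00438% passed as higher and 0.0175% as lower in KO. Adjusted p of the 47 ran from 0.522 to 0.990. At an unadjusted p under 0.05 the count was again 0 of 47, against 11.8% of all. KO and WT values overlapped for all 47 genes, while 19.3% of all genes and transcripts had no overlap (7.56% higher and 11.8% lower in KO). With slide as a block 4 of 47 had an unadjusted p under 0.05, against 8.04% of all, and with age as a covariate 4 of 47, against 14.1%. The ages of the groups met only at 18 weeks, so the age fit parts age from genotype poorly. Of the genes in these counts, Kif2c had passed the filter through KO and Cdc6 through WT. In 45 of 47 the fold change was smaller than 0.5 on the log2 scale, and in 41 the 95% interval lay within 2-fold in either direction. Cdc6, Chek1, Ncaph, Ttk, Kif11 and Kif2c had wider intervals, so differences beyond 2-fold in these 6 were not excluded with 3 arrays per group. In bulk skin, fewer dividing cells and less RNA per dividing cell cannot be told apart.

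**Figure D2:**
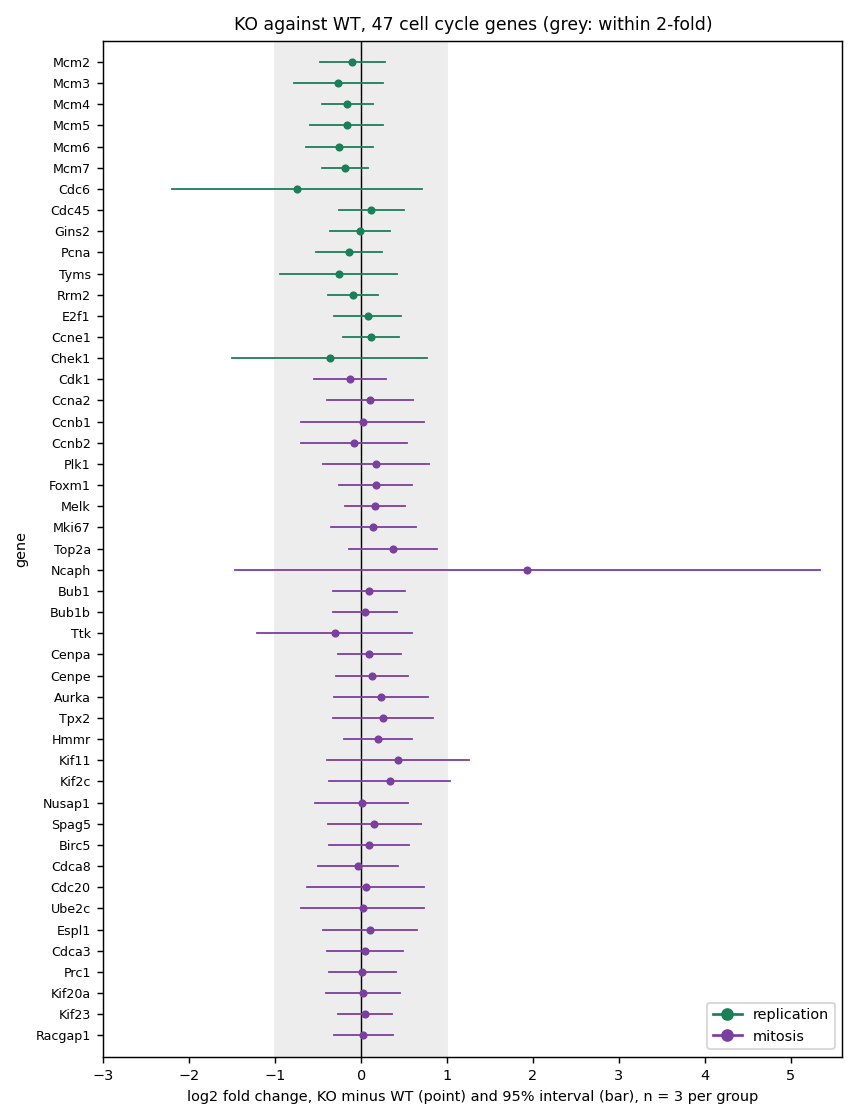
Log2 fold change, KO minus WT, of the 47 genes (points) with the 95% interval of the limma fit (bars), replication genes in green and mitosis genes in purple; the grey band spans 2-fold in either direction. Every interval crosses 0, and Ncaph has the widest, from −1.47 to 5.34.

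The median fold change was −0.16 over the 15 replication genes that passed the filter, with 12 negative, and 0.092 over the 32 mitosis genes, with 28 positive. The filter favoured these signs for Cdc6, Chek1 and Kif2c. Over the genes well above background on all arrays the median was −0.14 for 13 replication genes (10 negative) and 0.089 for 31 mitosis genes (27 positive). Over all genes and transcripts the median was −0.085, and 64.1% were negative. The difference between the 2 medians was 0.25. On slide 1 the medians were 0.079 for replication and 0.12 for mitosis genes, and on slide 2 they were −0.11 and 0.30. The size of both medians depended on the fit. The replication median was −0.052 with slide as a block (8 of 15 negative) and −0.080 with normexp and quantile normalization. It was −0.32 with age as a covariate, a fit that parts age from genotype poorly. The mitosis median was 0.18 with slide as a block and 0.031 with age (17 of 32 positive). The sign of the mitosis median turned without KO replicate 1 (−0.057, 10 of 32 positive) and without WT replicate 1 (−0.0034, 16 of 32 positive), and the median was 0.22 without KO replicate 3 and 0.18 without WT replicate 3. Without KO replicate 2 the replication median was −0.067 and without WT replicate 2 it was −0.096. Without KO replicates 1 and 2 the medians were 0.048 and −0.13, values that rest on 1 KO array and have no replicate check on the KO side.

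The 6 subunits of the MCM helicase, Mcm2 to Mcm7, all had negative fold changes, from −0.27 (Mcm3) to −0.10 (Mcm2), and all 6 were lowest in KO replicate 2, the array that was lowest for 27.1% of all genes and transcripts. Mcm7 read 2.36, 2.33 and 2.47 in KO skins and 2.46, 2.66 and 2.60 in WT skins. KO replicates 1 and 2 lay below every WT array, while KO replicate 3 stood just above WT replicate 1. Its fold change was −0.19 (SE 0.11, 95% interval −0.46 to 0.085, limma adjusted p = 0.531). Mcm6 read 3.67, 3.59 and 3.98 in KO arrays, against 3.91, 4.22 and 3.87 in WT, a difference of −0.26 (SE 0.16, limma adjusted p = 0.541). KO replicate 3 stood above WT replicates 1 and 3. Mcm2, a common mark of cells licensed to replicate, had a mean of 0.24 ± 0.22 in KO and 0.34 ± 0.16 in WT (SD, n = 3 each), a difference of −0.10. The median over the 6 subunits was −0.18 in all, 0.038 on slide 1 and −0.27 on slide 2. With slide as a block, where KO replicate 2 adds nothing, 5 of the 6 were negative, and likewise with that array left out. These 2 settings are not separate checks. Without KO replicates 1 and 2, which leaves 1 KO array, 3 of the 6 were negative.

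The proteins that load and start the helicase did not follow one direction. Cdc6, which loads MCM onto origins, had its single high value in WT replicate 3 (−1.21), with the other 5 arrays between −3.91 and −3.06. A second Cdc6 probe, too dim to pass the filter, was lowest in WT replicate 3 (−4.40). Cdc45 and Gins2, which complete the active helicase, had fold changes of 0.12 and −0.019. Pcna read 3.63, 3.66 and 3.96 in KO arrays, against 3.74, 4.12 and 3.79 in WT. WT replicate 2 was the highest array for Pcna and KO replicate 3 the next, so the groups overlapped, with a difference of −0.14 (SE 0.16, limma adjusted p = 0.703). The thymidylate synthase gene Tyms was low in 1 array, KO replicate 2 (−2.79), and between −1.94 and −1.70 in the other 5. Its fold change was −0.26 (SE 0.28, limma adjusted p = 0.687). Rrm2, the regulated subunit of ribonucleotide reductase, varied little in KO (1.82, 1.76 and 1.81), against 1.74, 1.88 and 2.04 in WT.

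Among genes of entry into S phase, E2f1, which drives the replication genes, had a fold change of 0.074, and Ccne1, cyclin E1 that activates Cdk2, of 0.11 (SE 0.14, limma adjusted p = 0.722). Ccne1 read −0.21, −0.32 and −0.48 in KO arrays, against −0.57, −0.50 and −0.27 in WT. The checkpoint kinase gene Chek1 was low in KO replicate 2 (−4.92) and ran from −3.79 to −3.05 in the other 5 arrays, with a fold change of −0.36 (SE 0.47, limma adjusted p = 0.730). Leaving out Cdc6 and Chek1, whose 1 dim KO array was fixed by the way they passed the filter, KO replicate 2 was the lowest array for 8 of 13 replication genes. These held 4 of 4 genes with E2F letters in a promoter window, Mcm3, Mcm5, Mcm6 and Mcm7, all of them helicase subunits described above. Mcm7 held the letters at only some of its listed starts. Mcm2 and Tyms, with no E2F letters, were lowest in KO replicate 2 too. E2F letters and membership of the helicase cannot be told apart in this count.

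**Figure D3:**
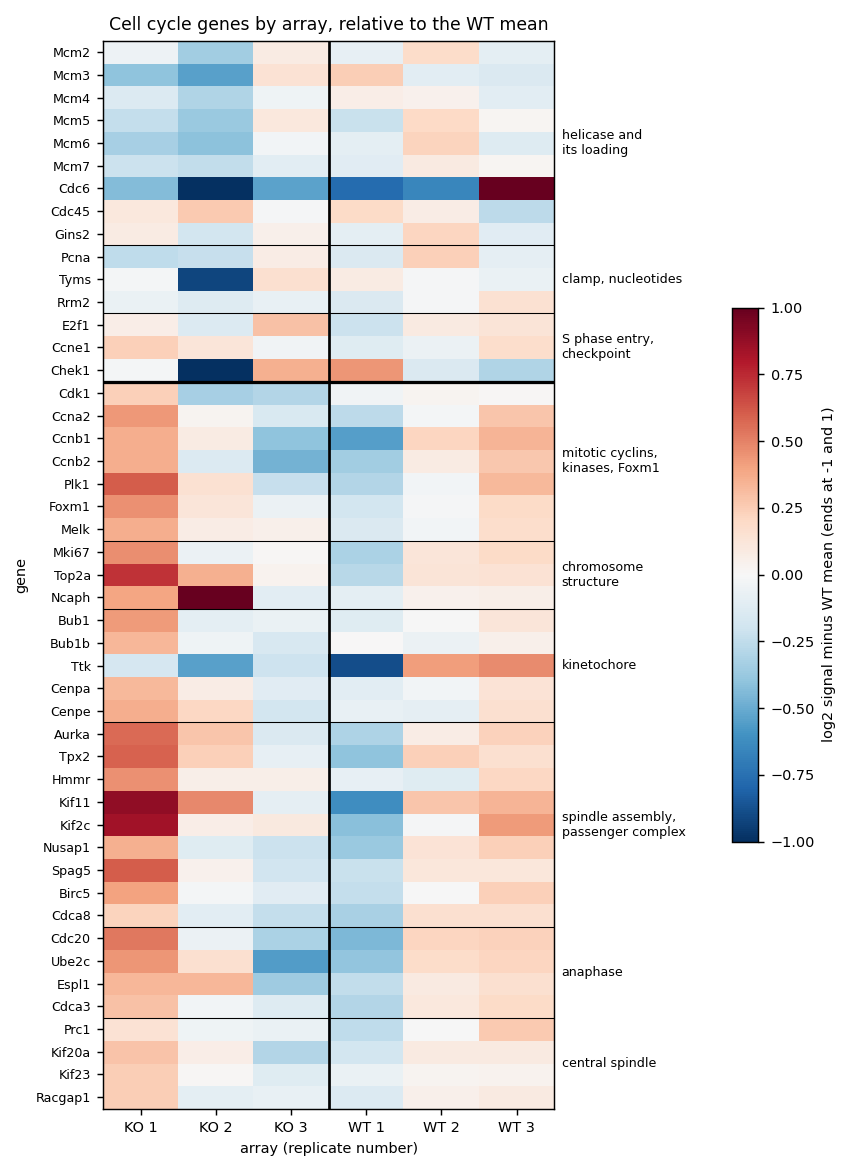
Log2 signal of each of the 47 genes on each array minus the gene's WT mean, KO arrays left and WT arrays right; colours end at −1 and 1, and the lines part the roles, with the thick line between replication (top) and mitosis genes. Of 32 mitosis genes 31 lie above their WT mean in KO replicate 1 and all 32 in WT replicate 3. In KO replicate 3, 27 lie below it and in WT replicate 1, 31, while the MCM rows are bluest in KO replicate 2.

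The mitosis genes moved together from array to array, across both groups. KO replicate 1 was the highest array for 28 of the 32, while it was the highest for 8.57% of all genes and transcripts. WT replicate 1 was the lowest array for 21 and KO replicate 3 for 9, so these arrays, the pair on slide 1, held the lowest value of 30 of 32, against 24.5% of all. The score of the mitosis genes was 0.38, 0.052 and −0.13 in KO skins 1 to 3 and −0.26, 0.063 and 0.19 in WT skins. The 6 scores interleave, and KO replicate 3 stood below WT replicates 2 and 3. The part of slide in this order was not tested apart from the block and within-slide values. Among mitosis genes with a RefSeq window, KO replicate 1 was highest for 18 of 21 with CHR letters and for 6 of 7 without.

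Among genes of chromosome structure, Mki67, the Ki-67 protein that coats mitotic chromosomes and marks cycling cells, read 2.82, 2.30 and 2.37 in KO arrays, against 2.04, 2.48 and 2.55 in WT. The highest value was a KO array and the lowest a WT array, yet KO replicates 2 and 3 lay below WT replicates 2 and 3. Its fold change was 0.14 (SE 0.21, 95% interval −0.35 to 0.63, limma adjusted p = 0.762), with 0.33 on slide 1 and 0.31 on slide 2. Top2a, the topoisomerase that untangles sister chromosomes, read −0.23, −0.60 and −0.92 in KO arrays, against −1.23, −0.82 and −0.81 in WT. It had the smallest p of the 47 genes, with a fold change of 0.37 (SE 0.21, 95% interval −0.15 to 0.88, unadjusted p = 0.132, limma adjusted p = 0.522). Within slides the Top2a differences were 0.31 and 0.58, and with slide as a block 0.46 (unadjusted p = 0.0243, limma adjusted p = 0.560), a fit in which KO replicate 2 adds nothing because it was alone on its slide.

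Ncaph, a subunit of the condensin complex that compacts chromosomes, had 1 extreme value. It read 0.69, 5.81 and 0.19 in KO arrays, against 0.20, 0.34 and 0.35 in WT, which is a processed signal of 28511 units in KO replicate 2 and of 435 to 974 units on the other 5 arrays. The spot was flagged neither as an outlier nor as saturated, and Ncaph had a single probe. Its fold change of 1.93 (SE 1.42, limma adjusted p = 0.576) was 0.14 without KO replicate 2.

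Genes of the mitotic kinases and cyclins had fold changes from −0.13 to 0.18, and KO replicate 1 was the highest array for all 7. Ccnb1, cyclin B1 that partners Cdk1, read 0.61, 0.33 and −0.16 in KO arrays, against −0.31, 0.46 and 0.58 in WT. Each group spanned nearly the whole range, and the difference was 0.016 (SE 0.30, 95% interval −0.70 to 0.73, limma adjusted p = 0.983). Its partner Cdk1 was close to constant in WT (−1.29, −1.23 and −1.24), with −1.02, −1.58 and −1.54 in KO on either side of it, and its fold change was −0.13 (SE 0.17, limma adjusted p = 0.741). Foxm1, the transcription factor of the mitotic wave, had 0.17 (SE 0.18, limma adjusted p = 0.673), and the kinase gene Melk 0.16 (SE 0.15, limma adjusted p = 0.634). Plk1, the kinase of spindle and cytokinesis, averaged 0.67 ± 0.42 in KO and 0.49 ± 0.31 in WT (SD, n = 3 each), with overlapping groups.

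Of 9 genes of spindle assembly and the chromosomal passenger complex 8 had positive fold changes, with a median of 0.19, and none passed the test. Among the 8, the filter favoured the sign of Kif2c. Kif11, the motor that pushes the spindle poles apart, read −2.14, −2.55 and −3.12 in KO arrays, against −3.65, −2.75 and −2.69 in WT. KO replicates 1 and 2 stood above all WT arrays and KO replicate 3 below WT replicates 2 and 3, for a fold change of 0.43 (SE 0.34, limma adjusted p = 0.605), or 0.12 without WT replicate 1. Hmmr, which focuses spindle poles, had 0.19 (SE 0.16, limma adjusted p = 0.622), Tpx2 and Aurka, an activator and its kinase at the spindle, 0.25 and 0.24, and the depolymerase gene Kif2c 0.33. The passenger subunits Birc5 and Cdca8 had 0.089 and −0.040.

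At the kinetochore, where chromosomes meet the spindle, fold changes ran from −0.30 to 0.13. Cenpe, a kinetochore motor, had 0.13 (SE 0.17, limma adjusted p = 0.738), and the checkpoint genes Bub1 and Bub1b had 0.087 and 0.042. Ttk, the kinase Mps1 of the spindle checkpoint, had a wider WT range (1.36) than the other kinetochore genes. Its values were −2.90, −3.28 and −2.94 in KO arrays, against −3.63, −2.32 and −2.26 in WT arrays. WT replicate 1 lay below all KO arrays and the other two WT arrays above them. The difference was −0.30 (SE 0.38, limma adjusted p = 0.719) and −0.75 without WT replicate 1.

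Genes of the last steps of division were close between the groups. Those of anaphase and proteolysis had fold changes from 0.016 to 0.10, among them Cdc20 and Ube2c, which act with the anaphase-promoting complex (0.051 and 0.016), the separase gene Espl1 (0.10, SE 0.23, limma adjusted p = 0.845) and Cdca3 (0.048, SE 0.18, limma adjusted p = 0.914). Cdc20 still read 2.06, 1.47 and 1.21 in KO arrays, against 1.08, 1.74 and 1.76 in WT, a spread within each group far above the difference between them. The central spindle genes Prc1, Kif20a, Kif23 and Racgap1, which build the bridge at which the cell is cut, had 0.012, 0.020, 0.046 (SE 0.13, limma adjusted p = 0.883) and 0.025 (SE 0.14, limma adjusted p = 0.947).

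**Figure D4:**
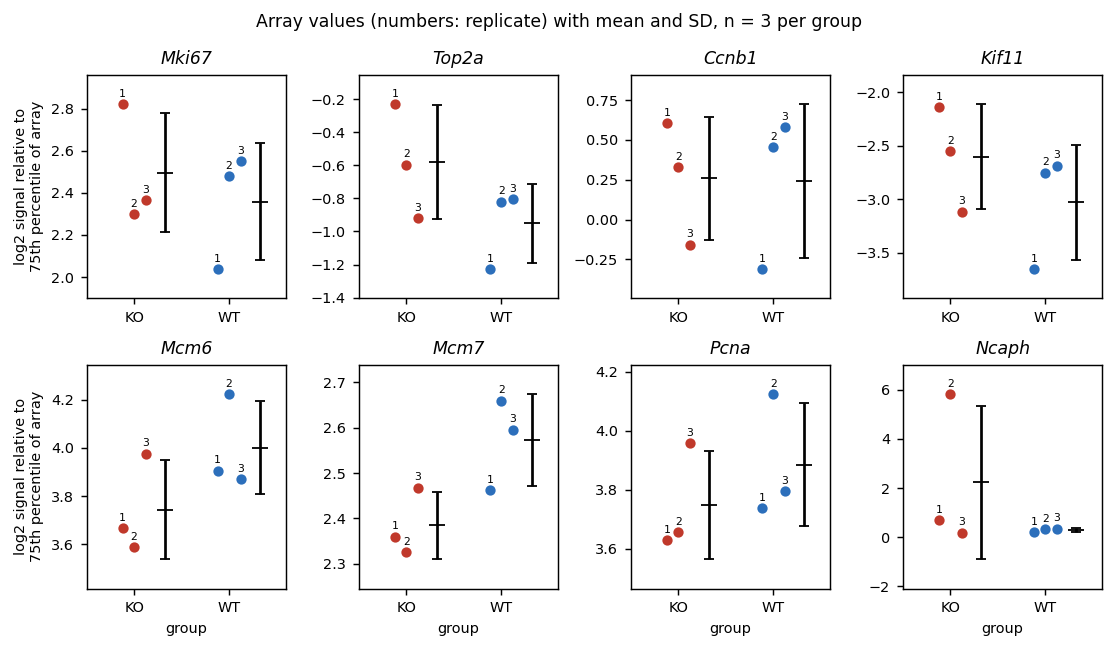
Log2 signal relative to the array's 75th percentile for 8 genes, KO left and WT right, with replicate numbers beside the points and the mean and SD of 3 arrays as bars. For Mki67, Top2a, Ccnb1 and Kif11 the highest array is KO replicate 1 and the lowest WT replicate 1, while Mcm6, Mcm7 and Pcna are highest in WT replicate 2.

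Other probes of the same genes that passed the filter gave much the same picture, while dimmer probes did not all do so. Of 12 genes with several probes, 6 had further probes that passed the filter, 8 probes in all, with differences from −0.11 to 0.23. KO replicate 1 was the highest array for 7 of the 8 and WT replicate 1 the lowest for 6. The second Mki67 probe read 2.41, 2.20 and 2.02 in KO arrays, against 1.76, 2.06 and 2.23 in WT. For Cdca8 and Racgap1 the second probe differed in sign from the brighter one. Among probes too dim to pass, those of Cdc6 (0.018), Kif2c (−0.17) and Tpx2 (−0.26) differed in sign from the probe used. Those of Ccne1 and Foxm1 had the same sign, and those of Cdk1 went both ways.

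Further genes of the pathway, listed with earlier results of these data known, were read beside these. Of 44 other replication genes, such as origin, polymerase and clamp loader subunits, 41 passed the filter, with a median of −0.025 and 24 negative. Of 46 symbols of other mitosis genes, a few of them older names, 38 passed, with a median of 0.0079 and 20 positive. Over all genes and transcripts the median was −0.085 and 64.1% were negative. By limma 0 of 41 and 0 of 38 passed the adjusted threshold in either direction, against 0.0219% of all. An unadjusted p under 0.05 was found for 0 of either list, against 11.8% of all. The smallest p of these lists were those of Mcm10, which helps start replication (0.36, SE 0.17), the thymidine kinase gene Tk1 (0.25, SE 0.13), the chromosome motor gene Kif4 (−0.42, SE 0.19) and the mitotic kinase gene Pbk (0.46, SE 0.22), with limma adjusted p from 0.453 to 0.486. KO replicate 1 was the highest array for 16 of the 38 other mitosis genes and WT replicate 1 the lowest for 20, and the scores of that list were 0.13, −0.13 and −0.13 in KO skins and −0.23, 0.16 and 0.091 in WT skins.

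Markers of other cells differed between the arrays too. Hair shaft and inner root sheath markers scored 4.09, 3.96 and −0.14 in KO skins 1 to 3 and −0.19, 0.25 and −0.053 in WT skins, with 15 of 22 listed passing the filter. Hair matrix markers, of the dividing cells that feed the shaft, scored 0.35, 0.16 and −0.24 in KO arrays, against −0.052, 0.077 and −0.025 in WT, over 7 of 8. Skeletal muscle markers scored 1.71, 2.09 and 1.54 in KO arrays, against 1.17, −0.34 and −0.70 in WT, over 18 of 18. Red blood cell markers, over 4 of 5, scored 0.29, 1.15 and 0.48 in KO arrays, against 0.57, −0.52 and −0.083 in WT arrays, with KO replicate 2 highest for all 4. Basal keratinocyte markers scored −0.27, −0.14 and −0.044 in KO arrays, against −0.19, 0.22 and −0.039 in WT arrays. T and natural killer cell markers, over 11 of 12, scored −1.04, −1.14 and −1.10 in KO arrays, against −0.17, −0.0011 and 0.17 in WT. The part of hair follicle, muscle, blood, basal and immune cells in the cell cycle values was not tested. The mitosis score minus the replication score was 0.45, 0.35 and −0.18 in KO arrays, against −0.16, −0.011 and 0.28 in WT arrays, and overlapped between the groups.

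**Figure D5:**
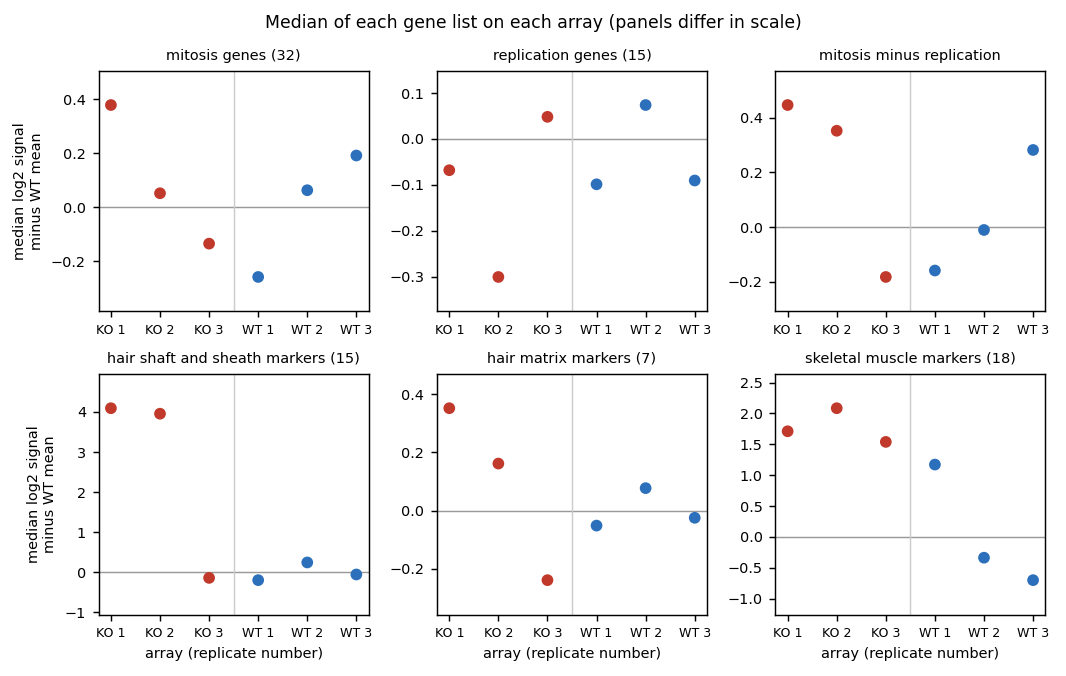
Score of each gene list on each array (median log2 signal minus WT mean), KO arrays in red at the left and WT arrays in blue at the right, with a scale of its own per panel. The mitosis score spans 0.38 to −0.26 and the replication score 0.074 to −0.30 with both groups mixed, while hair shaft markers are near 4 only in KO replicates 1 and 2.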

How the data were processed

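Skin RNA of 6 mice was labelled with Cy3 and hybridised to 1-colour arrays, per the labels' protocols. The authors deposited spot intensity values from Agilent's Feature Extraction software, per the file headers, background-subtracted within each array and with no step between arrays, together with other values, flags for dim, saturated and outlier spots. A table of log2 values was deposited as well, with limma named in the submitters' processing notes. Each of its 6 columns followed the array of the other group with the same number (r from 0.887 to 0.931 across 30082 probes) and ran against the array in its heading (r from −0.583 to −0.192), so it was not used further.

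Spots of a probe were averaged as log2 processed signal without outlier flags, less the 75th percentile of the array, taken without control probes; 31 of 55681 probes had no unflagged spot on some array. Accessions were named through a RefSeq table of GRCm38.p6 (27497 probes named, 28153 not). Each gene is its brightest kept probe. The 6 arrays were fitted with limma 3.58.1 (R 4.3.3, lmFit, eBayes, no covariate, two-sided). The fit was checked on simulated data in which genes varied independently, so shifts shared by many genes of an array were not covered. Labels call the samples replicates with 3 different ages per group, so they were taken as different animals; p-values measure the spread between them. The members, roles and lists were chosen with earlier results of these data known. Genes given with full statistics are usual cycling markers and, in each role, the 2 with the smallest unadjusted p; some others are named with a value alone. Alternatives were another background correction and scaling, no filter, slide, replicate number or age as a term, the mean of probes, and arrays left out. The planned mean spot signal is not a column of these files, so the median spot signal was used for normexp. Same-numbered arrays did not deviate together.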

Additional observations from a re-analysis of the deposited data

How the results depend on the processing

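Over 14 alternatives no cell cycle gene passed the adjusted threshold (limma adjusted p 0.125 to 0.999). Unadjusted p was under 0.05 for 1 gene without a background filter (Ncapg, against 6.76% of all genes). The count was 4 with slide as a block (Top2a, Tpx2, Kif11 and Kif2c, all higher in KO, against 8.04%). With age as a covariate it was 4 (Cdc6, Cdc45, Ncaph and Ttk, against 14.1%). The filter favoured a higher value of Kif2c and a lower value of Cdc6 in KO. The count was 2 without KO replicate 3 (Mcm3 and Top2a, against 14.4%) and 1 without WT replicate 1 (Ttk, against 16.1%). Over the 6 fits that leave out 1 array it ran from 0 to 2. Calls over all genes were 8 with normexp and quantile normalization, 2 with the 75th percentile over probes well above background on all arrays, 2 without a filter, 1 with slide as a block, 141 with age, 0 without KO replicates 1 and 2, and from 2 to 303 with 1 array left out (303 without WT replicate 1, 88 without KO replicate 3), against 5. The replicate block gave 0 calls and left the medians at −0.16 and 0.092; same-numbered arrays had correlations of −0.13, −0.036 and 0.081 between their deviations from group means, so the numbers were not taken as pairs.

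With 1 array left out the replication median ran from −0.23 to −0.067, the mitosis median from −0.057 to 0.22 and their difference from 0.076 to 0.45. Without KO replicates 1 and 2 the replication median was 0.048 and the difference −0.18; this leaves 1 KO array, whose spread is assumed to be that of the WT arrays. In that setting the sign turned for Pcna (0.072), Mcm2 (0.081), Tyms (0.16), Chek1 (0.35), Ccnb1 (−0.40), Ccne1 (−0.033), Foxm1 (−0.061), Ncaph (−0.10), Cenpe (−0.19), Kif11 (−0.087), Espl1 (−0.35), Cdca3 (−0.13), Kif23 (−0.12) and Racgap1 (−0.072). It turned with slide as a block for Mcm2 (0.018), Cdk1 (0.015), Tyms (0.046) and Chek1 (0.078), with age for Mki67 (−0.15), Ccnb1 (−0.19), Cdca3 (−0.14) and Racgap1 (−0.10), with normexp for Ccnb1 (−0.012) and Cdca3 (−0.0024), and with the mean of probes for Racgap1 (−0.042). With 1 array left out the ranges that crossed 0 were −0.024 to 0.24 (Mki67), −0.26 to 0.22 (Ccnb1), −0.022 to 0.33 (Espl1), −0.10 to 0.14 (Cdca3), −0.053 to 0.13 (Kif23), −0.087 to 0.087 (Racgap1), −0.20 to 0.016 (Mcm2), −0.47 to 0.071 (Tyms) and −0.72 to 0.17 (Chek1). In all, 6 of 22 named genes kept their sign throughout. The cause of these turns was not tested. Medians over genes well above background on all arrays, a setting chosen after seeing the data, differed by 0.23. All 6 MCM subunits stayed negative under both other scalings.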

Other observations

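Genes that restrain the cell cycle, which the report does not describe, included some of the smaller p-values of the pathway. All 21 genes listed as brakes and DREAM subunits passed the filter, with a median log2 fold change of −0.14 and 14 negative. Over all genes and transcripts the median was −0.085 and 64.1% were negative, so the count of negative signs is near the general share. The list of 21 also holds Mybl2, the gene of B-MYB, a driver of the mitotic wave and not a brake. Of the 21, 4 had an unadjusted p under 0.05 (11.8% of all genes and transcripts did) and 0 passed by limma after adjustment. E2f8, an atypical E2F that represses replication genes late in S phase, read −0.72, −0.53 and −0.49 in KO arrays, against −1.05, −1.11 and −0.97 in WT arrays. The groups did not overlap, as in 19.3% of all genes and transcripts (7.56% higher in KO). The difference was 0.46 (SE 0.12, limma adjusted p = 0.278), with 0.56 on slide 1 and 0.32 on slide 2. Its relative E2f7 read −0.73, −1.06 and −1.31 in KO and −1.50, −2.09 and −1.74 in WT, again without overlap (0.74, SE 0.21, limma adjusted p = 0.304), but this is its brightest probe, and the mean of its kept probes differed by 0.28 (limma adjusted p = 0.511). The other 2 of the 4 are named after their values were seen. Lin54, the DREAM subunit that binds the CHR element, read 0.19, 0.17 and 0.34 in KO and 0.62, 0.62 and 0.44 in WT (−0.32, SE 0.12, limma adjusted p = 0.381). Cdkn2a, which encodes the p16 and p19 inhibitors tied to senescence, averaged −2.42 in KO and 0.41 in WT, with an SD of 0.72 over the 3 KO arrays. It was high on WT replicates 1 and 3 and low on the other 4 arrays, so the groups overlapped (−2.83, SE 0.89, limma adjusted p = 0.334).

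Of 9 G1 cyclins, kinases and Myc genes 0 had an unadjusted p under 0.05 by limma, against 11.8% of all genes and transcripts, and the median was −0.017. Mycn read −0.60, −1.53 and −2.42 in KO and −1.99, −2.35 and −3.49 in WT (1.09, SE 0.55, limma adjusted p = 0.486), with −0.43 on slide 1 and 2.32 on slide 2. Cdk4 had −0.22 (SE 0.14, limma adjusted p = 0.542).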
